A study of Mus with 15 samples.

Results

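The forkhead transcription factor genes Foxo1, Foxo3, Foxo4, Foxp1, Foxp4 and Foxj1, all other than Foxp3, were followed in sorted mouse thymocytes. They were chosen by symbol, for known roles in T cell quiescence and in regulatory T cells (Tregs). All 6 were found among the 55573 genes of the count table, and 5 of them, all but Foxj1, passed the filter on low counts. The mice were female, 6 weeks old and of the strain C57Bl/6 x Foxp3-GFP, and thymus cells were depleted of CD8-bearing cells with magnets before the sort. Every gate took live TCRb+CD4+CD8- cells that lacked the ecto-enzyme CD73. Bst2+ cells carried BST2, a membrane protein that interferon induces, together with CD25 or FOXP3 or both. Mature Tregs carried both CD25, a chain of the high-affinity IL-2 receptor, and FOXP3. CD25+ progenitors carried CD25 without FOXP3, FOXP3lo progenitors carried low FOXP3 without CD25, and conventional CD4 single-positive (CD4SP) cells carried neither. The last 4 gates were BST2-negative. Each gate had 3 libraries, numbered 40, 42 and 43, from 1 sort experiment. The labels do not say whether a replicate is 1 mouse or a pool, so p-values measure only how far these samples differ among themselves.

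Forkhead factors bind DNA through a winged helix domain. The kinases PI3K and AKT keep FOXO proteins out of the nucleus after antigen receptor or cytokine signals, and in resting cells FOXO proteins enter it and switch on genes of cell cycle arrest, survival and trafficking. In mouse T cells FOXO1 is known to drive Il7r and Klf2, and FOXO1 with FOXO3 supports Foxp3 and Treg function. FOXP1 and FOXP4 are relatives of FOXP3 that repress through corepressor complexes, and FOXP1 is known to keep naive mouse T cells quiet. FOXJ1 is the master factor of motile cilia, and in mouse T cells it is known to restrain NF-kappaB.

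The libraries held 10816064 to 23758157 assigned counts. The Bst2+ libraries stood apart, with 14685 to 17198 genes with a count against 18355 to 23382 in the libraries of the other gates. The biological coefficient of variation was 0.42 over all 15 libraries and 0.184 over the 12 without the Bst2+ gate, so members, and counts over gene lists, are given from both fits among the other 4 gates, and single list genes from the 15-library fit. Levels are CPM, counts scaled to a library of fixed size by TMM, as mean ± SD over 3 libraries where a mean is given, and fold changes are log2 ± SE. T cell markers summed to 2517 to 3843 CPM per library, with none of 8 at 0 in any gate. Foxp3 averaged 25.8 ± 15.7 CPM in Bst2+ cells, 598 ± 59.7 CPM in mature Tregs and 3.20 ± 1.24 CPM in CD25+ progenitors. FOXP3lo progenitors averaged 290.0 ± 15.9 CPM and conventional cells 0.951 ± 0.545 CPM. Il2ra, the gene of CD25, had 163 to 308 CPM in Bst2+ libraries, 1120 to 1178 CPM in mature Tregs and 281 to 295 CPM in CD25+ progenitors. It had 100 to 118 CPM in FOXP3lo progenitors, sorted as CD25-negative, against 7.45 to 10.3 CPM in conventional cells. Bst2 RNA had 50.3, 18.4 and 15.7 CPM in the Bst2+ libraries and 11.3 to 18.3 CPM in the others. Only Bst2+ replicate 40 lay clearly above the other gates. Bst2+ replicate 42 (18.44 CPM) was about level with mature Treg replicate 42 (18.27 CPM). Markers of CD8 and double-positive thymocytes, 6 genes with none at 0 in any gate, summed to 758 to 1293 CPM in Bst2+ libraries, 35.8 to 42.1 CPM in mature Tregs, 154.9 to 202 CPM in CD25+ progenitors, 19.9 to 24.0 CPM in FOXP3lo progenitors and 52.4 to 89.4 CPM in conventional cells. The 8 dendritic cell and macrophage markers summed to 239.3 to 429.8 CPM in the Bst2+ libraries, with none at 0, and to 13.2 to 28.2 CPM elsewhere. Sums were also higher in the Bst2+ libraries for 6 plasmacytoid dendritic cell markers (107.7 to 182.3 CPM, against 15.6 to 72.0 CPM elsewhere) and 6 B cell markers (4.31 to 35.8 CPM, against 0.406 to 2.71 CPM). The 6 thymic epithelium markers summed to 7.19 to 40.7 CPM in Bst2+ libraries, with Krt5, Foxn1 and Psmb11 at 0, and to 2.43 to 12.9 CPM elsewhere.

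The members lie on 6 chromosomes (GRCm38, Ensembl 97). Foxo1 (ENSMUSG00000044167) lies on the plus strand of chromosome 3, from 52268336 to 52353221, and Foxo3 (ENSMUSG00000048756) on the minus strand of chromosome 10, from 42181841 to 42276755. Foxo4 (ENSMUSG00000042903) lies on the plus strand of chromosome X, from 101254528 to 101260873. Foxp1 (ENSMUSG00000030067) spans 98925338 to 99522721 on the minus strand of chromosome 6, and Foxp4 (ENSMUSG00000023991) 47867133 to 47924645 on the minus strand of chromosome 17. Foxj1 (ENSMUSG00000034227) lies on the minus strand of chromosome 11, from 116330704 to 116335399. Of the exonic bases of Foxp1, 3.16% are shared with other genes on its strand.

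Foxo1, the FOXO gene best known for T cell homing and survival, was highest in FOXP3lo progenitors and lowest in Bst2+ cells. In replicates 40, 42 and 43 it had 143, 125 and 177 CPM in Bst2+ cells, 336, 325 and 322 CPM in mature Tregs and 195, 205 and 191 CPM in CD25+ progenitors. FOXP3lo progenitors had 426, 410.5 and 383 CPM and conventional cells 219.5, 216 and 208 CPM. No 2 gates overlapped. Every library of mature Tregs and FOXP3lo progenitors lay above every library of the other 3 gates. In bulk RNA, fewer cells of a type and less RNA per cell cannot be told apart.

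**Figure D1:**
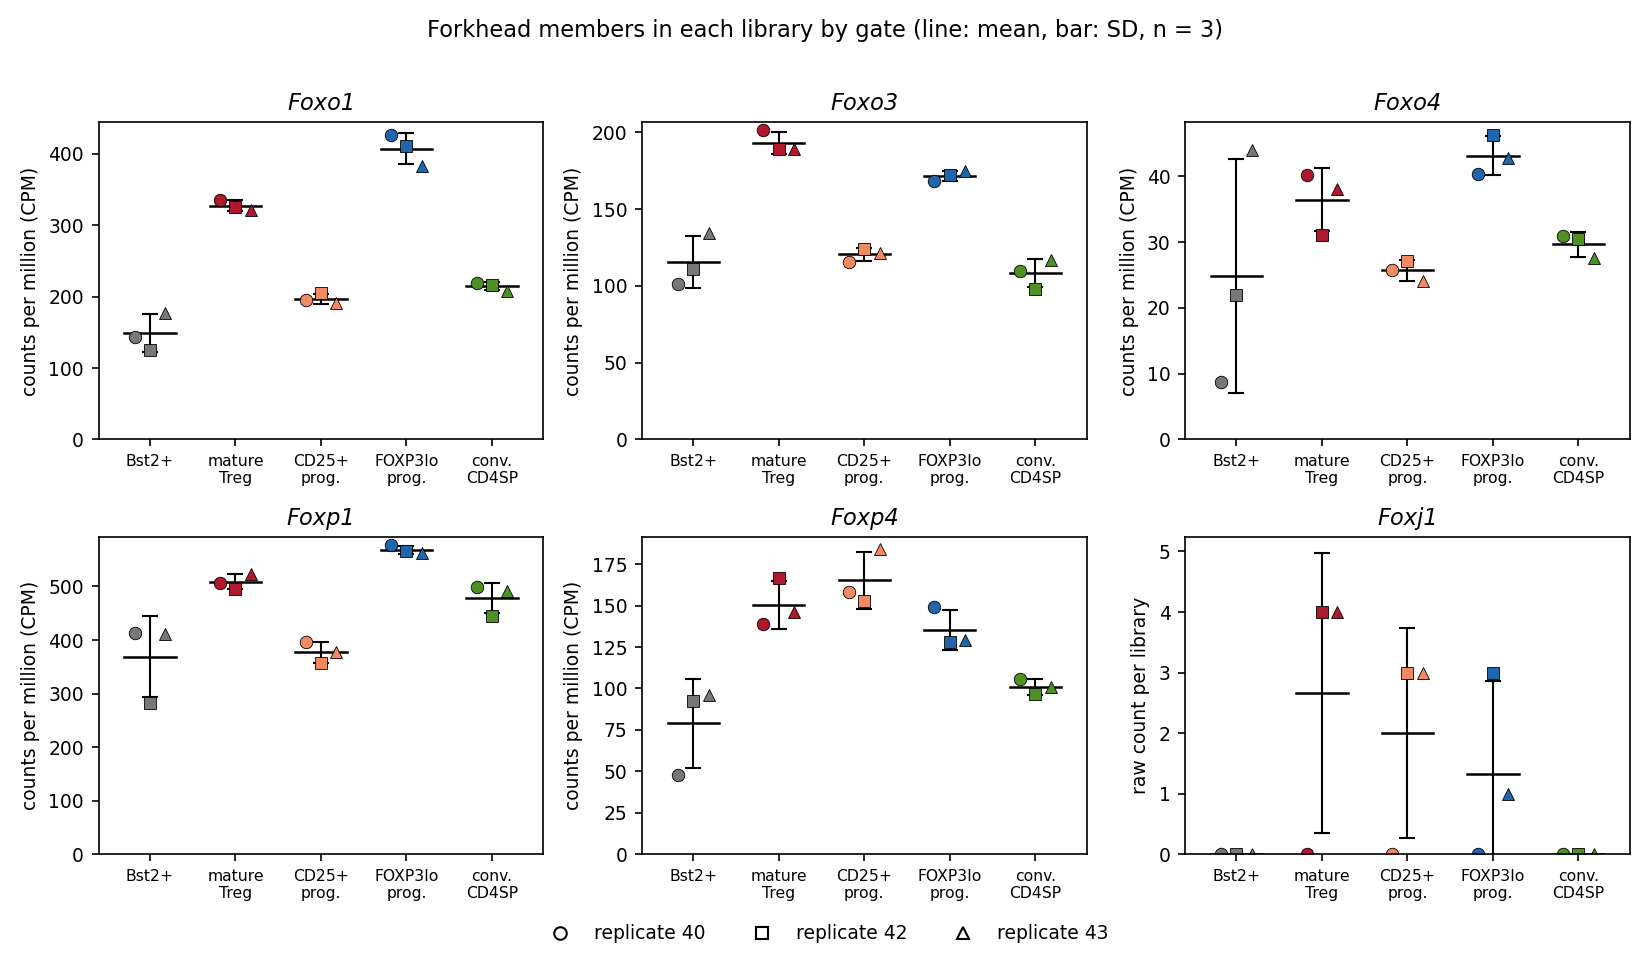
Each point is 1 library (circle, square and triangle for replicates 40, 42 and 43), in CPM on axes from 0, or in raw counts for Foxj1; lines are means and bars SD over 3 libraries. Foxo1, Foxo3, Foxo4 and Foxp1 have their highest means in mature Tregs or FOXP3lo progenitors, Foxp4 has its highest in CD25+ progenitors (165 CPM), and Foxj1 has at most 4 counts in any library.

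FOXP3lo progenitors had 1.89-fold the Foxo1 RNA of conventional cells (log2 0.92 ± 0.10, edgeR adjusted p = 1.13e-05). Mature Tregs had 1.52-fold the level of conventional cells (log2 0.61 ± 0.10, edgeR adjusted p = 0.000467) and 1.66-fold that of CD25+ progenitors (0.73 ± 0.10, edgeR adjusted p = 8.17e-05). CD25+ progenitors had 0.484 times the level of FOXP3lo progenitors (−1.05 ± 0.10, edgeR adjusted p = 1.08e-06), and 12-library fits with 1 further library left out gave −1.09 to −1.001. Against conventional cells, CD25+ progenitors did not pass the test (−0.13 ± 0.10, edgeR adjusted p = 0.599, 95% interval −0.34 to 0.09, and adjusted p = 0.159 without the Bst2+ libraries). Mature Tregs against FOXP3lo progenitors missed the threshold with 15 libraries (−0.31 ± 0.10, edgeR adjusted p = 0.103) and passed it without the Bst2+ libraries (−0.31 ± 0.06, edgeR adjusted p = 0.000299). At the bottom of the order, Bst2+ cells had 0.754 times the level of CD25+ progenitors (−0.41 ± 0.10, edgeR adjusted p = 0.00849). The test takes a gene's spread as shared by all gates. Within the Bst2+ gate the biological coefficient of variation was 0.454, against 0.124 to 0.164 within the others. No alternative fit was run for this pair.

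Foxo3, a FOXO gene known in T cells for inducing the death factor Bcl2l11, was highest in mature Tregs. It had 101, 111 and 134 CPM in Bst2+ cells, 201, 189 and 189 CPM in mature Tregs and 116, 124 and 121 CPM in CD25+ progenitors. FOXP3lo progenitors had 168, 172 and 175 CPM and conventional cells 110.0, 98.2 and 117 CPM. Mature Tregs and FOXP3lo progenitors overlapped neither with each other nor with another gate, while Bst2+ cells, CD25+ progenitors and conventional cells overlapped.

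Foxo3 in mature Tregs stood at 1.78-fold the level of conventional cells (log2 0.84 ± 0.10, edgeR adjusted p = 2.02e-05) and 1.604-fold that of CD25+ progenitors (0.68 ± 0.10, edgeR adjusted p = 0.000183). FOXP3lo progenitors were at 1.58-fold conventional cells (0.66 ± 0.10, edgeR adjusted p = 0.000341), and CD25+ progenitors at 0.702 of FOXP3lo progenitors (−0.51 ± 0.10, edgeR adjusted p = 0.0015). Mature Tregs against FOXP3lo progenitors passed in neither fit (0.17 ± 0.10, edgeR adjusted p = 0.536, 95% interval −0.04 to 0.39, and adjusted p = 0.104 without the Bst2+ libraries). Nor did CD25+ progenitors against conventional cells (0.15 ± 0.10, edgeR adjusted p = 0.471, and adjusted p = 0.122 without the Bst2+ libraries) or Bst2+ cells against CD25+ progenitors (−0.06 ± 0.10, edgeR adjusted p = 0.721).

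Foxo4, the X-linked FOXO gene, was the least abundant FOXO gene per length in every gate. It had 8.72, 22.0 and 44.0 CPM in Bst2+ cells, which reached from below all other libraries to above all but 1. Mature Tregs had 40.2, 31.1 and 38.1 CPM and CD25+ progenitors 25.8, 27.2 and 24.1 CPM. FOXP3lo progenitors had 40.4, 46.3 and 42.8 CPM and conventional cells 31.0, 30.5 and 27.5 CPM. Outside the Bst2+ gate FOXP3lo progenitors lay highest, then mature Tregs, conventional cells and CD25+ progenitors, with no overlap in CPM scaled by TMM. The nearest libraries of neighbouring gates were close, at 40.44 and 40.22, 31.14 and 30.99, and 27.53 and 27.21 CPM. Scaled by column totals instead, mature Tregs and conventional cells overlapped.

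With all 15 libraries and the low-count filter, edgeR called Foxo4 in no comparison among these 4 gates, at adjusted p from 0.162 to 0.926 and with standard errors near 0.34. With no filter it called Foxo4 in CD25+ against FOXP3lo progenitors (adjusted p = 0.0162). With sample weights, limma-voom called that comparison (adjusted p = 5.74e-06), FOXP3lo progenitors against conventional cells (0.000375) and mature Tregs against CD25+ progenitors (0.00765). Without the Bst2+ libraries CD25+ progenitors fell below FOXP3lo progenitors (−0.75 ± 0.13, edgeR adjusted p = 5.49e-06) and mature Tregs rose above CD25+ progenitors (0.50 ± 0.13, edgeR adjusted p = 0.00185). In that fit FOXP3lo progenitors also rose above conventional cells (0.54 ± 0.13, edgeR adjusted p = 0.000928), while mature Tregs against conventional cells (0.30 ± 0.13, edgeR adjusted p = 0.0742), mature Tregs against FOXP3lo progenitors (−0.24 ± 0.13, edgeR adjusted p = 0.199) and CD25+ progenitors against conventional cells (−0.21 ± 0.13, edgeR adjusted p = 0.253) did not pass.

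Foxp1, the FOXP3 relative of naive T cell quiescence, was highest in FOXP3lo progenitors, as Foxo1 was, and its lowest levels were shared by Bst2+ cells and CD25+ progenitors. It had 414, 282 and 411 CPM in Bst2+ cells, 506, 496 and 523 CPM in mature Tregs and 396, 358 and 378 CPM in CD25+ progenitors. FOXP3lo progenitors had 577, 566 and 562 CPM and conventional cells 499, 446 and 491 CPM. Mature Tregs overlapped with conventional cells, and CD25+ progenitors lay below both in every library.

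CD25+ progenitors had 0.664 times the Foxp1 of FOXP3lo progenitors (log2 −0.59 ± 0.11, edgeR adjusted p = 0.000903), and mature Tregs 1.35-fold the level of CD25+ progenitors (0.43 ± 0.11, edgeR adjusted p = 0.0143). With 15 libraries the call on mature Tregs was lost without mature Treg replicate 40 or 43 (adjusted p = 0.0632 and 0.0841) or CD25+ replicate 42 or 43 (adjusted p = 0.0792 and 0.0537). Against conventional cells CD25+ progenitors missed the threshold (−0.34 ± 0.11, edgeR adjusted p = 0.0564), and they passed it with the replicate number as a block (adjusted p = 0.0347) and without the Bst2+ libraries (−0.34 ± 0.06, edgeR adjusted p = 2.65e-05). Mature Tregs did not pass against conventional cells (0.09 ± 0.11, edgeR adjusted p = 0.778, 95% interval −0.15 to 0.32, and adjusted p = 0.322 without the Bst2+ libraries). FOXP3lo progenitors against conventional cells gave 0.25 ± 0.11, edgeR adjusted p = 0.227, and adjusted p = 0.002 without the Bst2+ libraries.

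Foxp4, a FOXP relative less studied in T cells, had its highest mean in CD25+ progenitors. It had 48.1, 92.7 and 96.0 CPM in Bst2+ cells, 139, 166 and 146 CPM in mature Tregs and 158, 153 and 184 CPM in CD25+ progenitors. FOXP3lo progenitors had 149, 128 and 129 CPM and conventional cells 106, 96.5 and 101 CPM. All 9 libraries of mature Tregs and both progenitor gates lay above conventional cells, and all 3 of Bst2+ cells lay below them, by little in replicates 42 and 43.

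Foxp4 was 1.64-fold as high in CD25+ progenitors as in conventional cells (log2 0.71 ± 0.18, edgeR adjusted p = 0.0149, and adjusted p = 4.53e-09 without the Bst2+ libraries). With 15 libraries this call was lost without CD25+ replicate 43 (adjusted p = 0.0858), conventional replicate 42 (0.0618) or conventional replicate 43 (0.0583), and in the 12-library fit it was kept whichever library was left out. Mature Tregs were at 1.49-fold conventional cells (0.57 ± 0.18, edgeR adjusted p = 0.0484, and 4.75e-07 without the Bst2+ libraries). That call was lost with the replicate block (adjusted p = 0.0612) and without any 1 of the 12 libraries outside the Bst2+ gate (adjusted p = 0.0638 to 0.212). FOXP3lo progenitors against conventional cells gave 0.42 ± 0.18, edgeR adjusted p = 0.201, and adjusted p = 0.000118 without the Bst2+ libraries. CD25+ against FOXP3lo progenitors gave 0.29 ± 0.18, edgeR adjusted p = 0.341, and adjusted p = 0.00443 without the Bst2+ libraries, a call lost when CD25+ replicate 43 was left out as well.

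Foxj1 was at the edge of detection. The Bst2+ and conventional libraries all had 0 counts, which allows up to 0.189 to 0.288 CPM in a Bst2+ library and 0.121 to 0.223 CPM in a conventional library (3 counts). Mature Tregs had 0, 4 and 4 counts, CD25+ progenitors 0, 3 and 3, and FOXP3lo progenitors 0, 3 and 1. All counts thus came from replicates 42 and 43 of the other 3 gates. The gene did not pass the low-count filter and was not tested. The 12 multiciliated cell markers, genes of the program that FOXJ1 drives in airway cells, summed to 4.30 to 18.1 CPM per library.

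Counted over members, CD25+ progenitors differed from FOXP3lo progenitors in 3 of the 5 tested members, all lower (19.1% of all genes were called, 9.17% as lower). Without the Bst2+ libraries all 5 were called (39.5% of all genes), Foxp4 being the one that was higher. Mature Tregs against CD25+ progenitors gave 3 of 5, all higher (6.78% of all genes were higher and 6.26% lower). Without the Bst2+ libraries it was 4 of 5 (32.7% of all genes were called in either direction). Mature Tregs against conventional cells gave 3 of 5, all higher (12.2% of all genes were called, 6.45% as higher), and 3 of 5 without the Bst2+ libraries (30.4% in either direction).

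FOXP3lo progenitors against conventional cells gave 2 of 5, Foxo1 and Foxo3, both higher (8.71% of all genes were called, 4.88% as higher). Without the Bst2+ libraries it was 5 of 5 (25.1% in either direction). CD25+ progenitors against conventional cells gave 1 of 5, Foxp4 (11.6% of all genes), and 2 of 5 without the Bst2+ libraries (29.0%), with Foxp1 added as lower. Mature Tregs against FOXP3lo progenitors gave 0 of 5 by edgeR (4.72% of all genes), with Foxo1 alone under an unadjusted p of 0.05, and 1 of 5, Foxo1, without the Bst2+ libraries (18.7%). In that comparison DESeq2 called 1 and limma-voom 2 of the 5. These comparisons share libraries, so their counts are not independent.

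**Figure D2:**
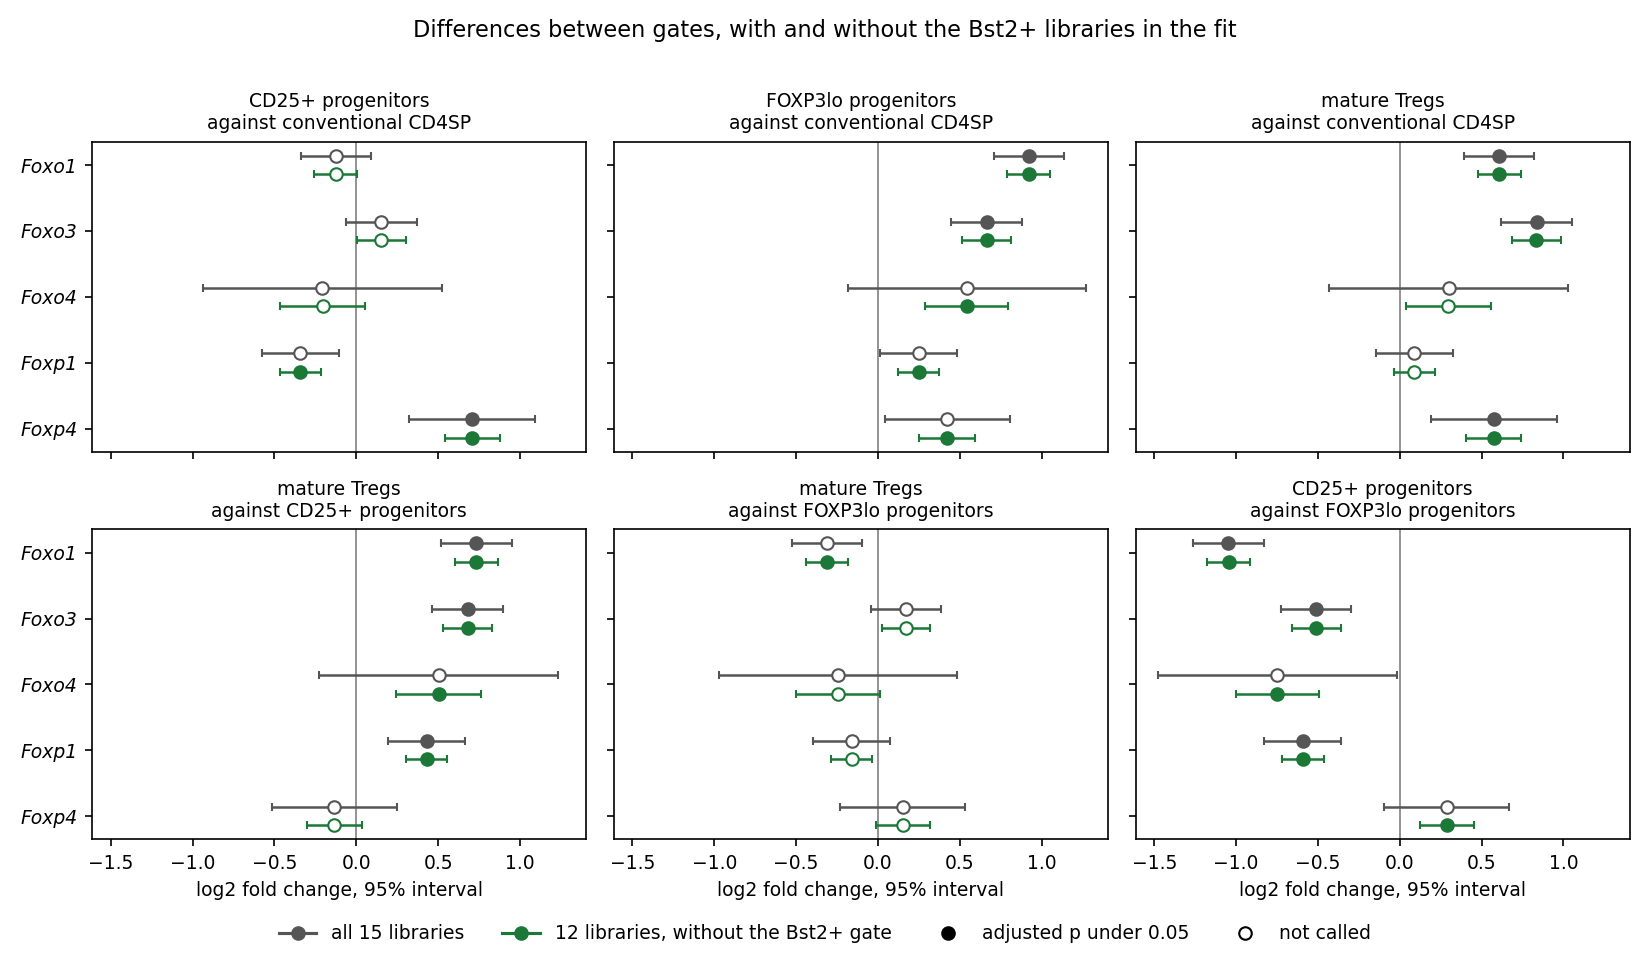
Log2 fold changes of 5 members in 6 comparisons (points) with 95% intervals (bars), from the fit of all 15 libraries (grey) and of the 12 without the Bst2+ gate (green); filled points passed an adjusted p of 0.05. The points of both fits lie at nearly the same values and the green intervals are narrower, most of all for Foxo4, whose standard error against conventional cells was 0.34 with 15 libraries and 0.13 with 12.

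The difference that goes with CD25 was also compared between cells with and without FOXP3, as mature Tregs minus FOXP3lo progenitors less CD25+ progenitors minus conventional cells. No member was called by edgeR with 15 libraries (2.35% of all genes were), with Foxp4 alone under an unadjusted p of 0.05, none by DESeq2 and Foxp4 by limma-voom. Foxp4 had −0.56 ± 0.26, edgeR adjusted p = 0.49 with 15 libraries and −0.56 ± 0.12, edgeR adjusted p = 0.000693 without the Bst2+ libraries (10.9% of all genes called). The 2 differences behind this value were 0.15 ± 0.18 with FOXP3 and 0.71 ± 0.18 without it. Levels of the gate genes were unequal within these pairs. Foxp3 had 532 to 648 CPM in mature Tregs against 272 to 301 CPM in FOXP3lo progenitors. Il2ra had 1120 to 1178 CPM in mature Tregs and 281 to 295 CPM in CD25+ progenitors. The part of these unequal levels in the interaction was not tested.

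Bst2+ cells were below the mean of the 3 BST2-negative gates that carry CD25, FOXP3 or both in 4 of the 5 members (39.1% of all genes were called). In the fit that mean is one of log levels. Foxo1 stood at 0.4998 times it (log2 −1.001 ± 0.09, edgeR adjusted p = 2.36e-07) and Foxp4 at 0.528 times (−0.92 ± 0.16, edgeR adjusted p = 0.00021), and neither overlapped with those gates. As plain means, Foxo1 had 148 CPM in Bst2+ cells against 310 CPM over the 3 gates, and Foxp4 78.9 CPM against 150 CPM. Foxo3 (−0.46 ± 0.09, edgeR adjusted p = 0.000507) and Foxp1 (−0.37 ± 0.09, edgeR adjusted p = 0.00451) overlapped with CD25+ progenitors, and Foxp1 was at −0.22 without Bst2+ replicate 42. Foxo4 did not pass (−0.45 ± 0.29, edgeR adjusted p = 0.232), except with no low-count filter (adjusted p = 0.044), and was at −0.06 without Bst2+ replicate 40 and at −1.16 without replicate 43, the last with adjusted p = 0.00106. With sample weights in limma-voom, which were 0.157 to 0.276 for the Bst2+ libraries and 1.01 to 2.11 for the others, the Foxo3 call was lost (adjusted p = 0.0658).

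Against CD25+ progenitors alone, Bst2+ cells differed in 2 of 5 members (24.1% of all genes), Foxo1 and Foxp4 (−1.06 ± 0.18, edgeR adjusted p = 0.000569). Foxo3, Foxo4 and Foxp1 did not pass there, with 95% intervals of −0.28 to 0.16, −0.77 to 0.70 and −0.27 to 0.20. Against conventional cells Bst2+ cells were lower in 2 of 5, near the share of all genes called (29.1%). These were Foxo1 (−0.53 ± 0.10, edgeR adjusted p = 0.000987) and Foxp1 (−0.37 ± 0.11, edgeR adjusted p = 0.0181). For Foxp1, Bst2+ replicate 42 had 282 CPM and the others 411 and 414 CPM, against 446 CPM in the lowest conventional library. No library was left out in turn for the comparisons with single gates. In Bst2+ cells 27 of 28 proliferation genes were higher than in the other 3 gates (median log2 2.28), where 39.1% of all genes were called in either direction. Mki67, an antigen of cycling cells, averaged 662 ± 109.7 CPM there, against 67.9 ± 16.9 CPM in mature Tregs, 187 ± 41.5 CPM in CD25+ progenitors and 62.5 ± 2.41 CPM in FOXP3lo progenitors. The part of cycling cells and of CD8, double-positive, dendritic and macrophage marker RNA in the lower forkhead levels was not tested.

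Per length, in counts per kilobase of exon scaled as CPM (RPKM), Foxo1 had the highest mean of the 3 FOXO genes in every gate. The summed FOXO level was 32.4, 35.4 and 50.8 RPKM in Bst2+ cells, 76.9, 71.5 and 73.0 RPKM in mature Tregs and 45.2, 47.8 and 45.0 RPKM in CD25+ progenitors. It was 83.0, 83.4 and 79.6 RPKM in FOXP3lo progenitors and 48.8, 46.7 and 47.3 RPKM in conventional cells. FOXP3lo progenitors lay above mature Tregs, both lay above the other 3 gates, and those 3 overlapped.

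The mix within the families varied too. The RPKM ratio of Foxo1 to Foxo3 was 1.12 ± 0.132 in Bst2+ cells, 1.48 ± 0.0226 in mature Tregs and 1.43 ± 0.0485 in CD25+ progenitors (SD, n = 3 each), against 2.07 ± 0.150 in FOXP3lo progenitors and 1.74 ± 0.181 in conventional cells. Mature Tregs and FOXP3lo progenitors did not overlap in this ratio. The RPKM ratio of Foxp4 to Foxp1 was 0.631 ± 0.297 in Bst2+ cells, 0.827 ± 0.0955 in mature Tregs and 1.22 ± 0.126 in CD25+ progenitors, against 0.665 ± 0.0496 in FOXP3lo progenitors and 0.590 ± 0.0163 in conventional cells. In CD25+ progenitors it was 1.12, 1.19 and 1.36, so that Foxp4 exceeded Foxp1 per length in all 3 libraries, while the highest value of any other library was 0.937. Values above 1 depend on the exonic lengths used, 13751 bases for Foxp1 and 4926 bases for Foxp4. Before scaling by length, CD25+ progenitors averaged 377 CPM of Foxp1 against 165 CPM of Foxp4. The ratios are given as a description and were not tested.

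**Figure D3:**
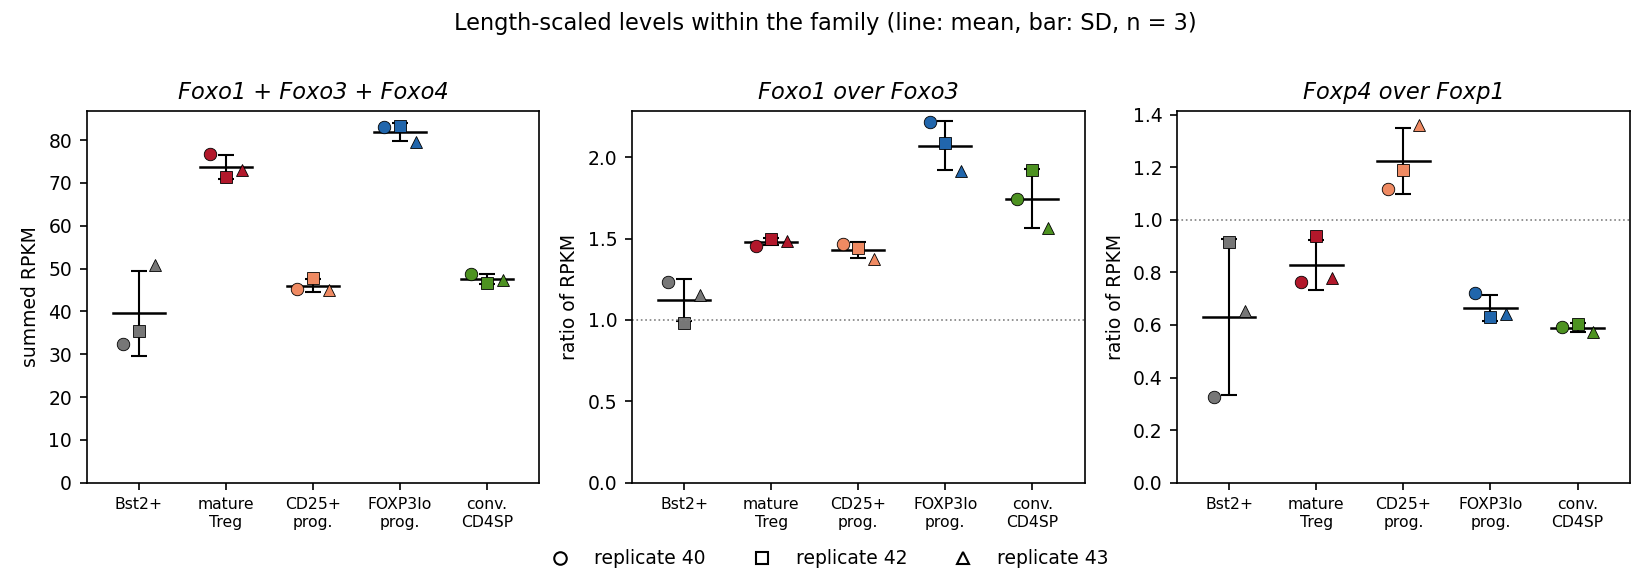
Summed FOXO RPKM (left), the ratio of Foxo1 to Foxo3 RPKM (middle) and the ratio of Foxp4 to Foxp1 RPKM (right) in each library, with mean and SD over 3 libraries; dotted lines mark a ratio of 1. The summed level is high in mature Tregs (71.5 to 76.9) and FOXP3lo progenitors (79.6 to 83.4). CD25+ progenitors alone exceed 1 in the right panel, a crossing that depends on the exonic lengths used.

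Upstream of the FOXO proteins, 26 genes of PI3K, AKT, SGK and their antagonists were tested. Of these, 9 were called in CD25+ against FOXP3lo progenitors, all lower (9.93% of all genes were higher and 9.17% lower), with a list median of −0.23 against −0.0072 over all genes. Without the Bst2+ libraries 3 higher and 13 lower were called (39.5% of all genes were called). Pik3cd, the leukocyte PI3K catalytic subunit, averaged 249 ± 7.67 CPM in CD25+ progenitors against 518 ± 11.4 CPM in FOXP3lo progenitors (−1.06 ± 0.08, edgeR adjusted p = 8.85e-08). Inpp4b, a phosphatase that opposes PI3K, averaged 334 ± 31.8 CPM in CD25+ progenitors against 642 ± 24.3 CPM in FOXP3lo progenitors (−0.95 ± 0.12, edgeR adjusted p = 1.61e-05), so genes for both sides of the pathway were among those that fell. Against conventional cells, 5 were called in CD25+ progenitors, all lower (5.98% of all genes were higher and 5.66% lower). Without the Bst2+ libraries 6 were higher and 8 lower (29.0% of all genes were called). Pik3r1, the PI3K regulatory subunit, averaged 554 ± 11.3 CPM in mature Tregs against 263 ± 15.7 CPM in conventional cells (1.08 ± 0.10, edgeR adjusted p = 1.1e-06), where 2 genes of the list were higher and 4 lower (6.45% and 5.73% of all genes). The other higher one was Phlpp1, an AKT phosphatase. The counts were 8 higher and 9 lower without the Bst2+ libraries (30.4% of all genes were called).

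All 22 genes listed for enzymes and carriers that act on FOXO proteins were tested. CD25+ progenitors had 6 higher and 5 lower than FOXP3lo progenitors (9.93% of all genes were higher and 9.17% lower). Without the Bst2+ libraries 7 were higher and 6 lower (39.5% of all genes were called). Ywhae, a 14-3-3 protein of the kind that holds phosphorylated FOXO in the cytoplasm, averaged 354 ± 7.12 CPM in CD25+ progenitors against 189.6 ± 10.3 CPM in FOXP3lo progenitors (0.90 ± 0.08, edgeR adjusted p = 3.03e-07). Stk4, a kinase that drives FOXO into the nucleus, was lower (−0.71 ± 0.08, edgeR adjusted p = 5.01e-06), as was the acetyltransferase gene Crebbp (−0.55 ± 0.08, edgeR adjusted p = 0.000113). The nuclear exporter gene Xpo1 averaged 204 ± 7.34 CPM in mature Tregs and 175 ± 21.7 CPM in FOXP3lo progenitors, against 269 ± 5.41 CPM in conventional cells. Both were called lower (mature Tregs −0.40 ± 0.09, edgeR adjusted p = 0.005, FOXP3lo progenitors −0.62 ± 0.09, edgeR adjusted p = 0.000176). Protein location and phosphorylation were not measured.

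Known FOXO targets of cell cycle arrest, stress defence and metabolism were called lower more often than higher in CD25+ against FOXP3lo progenitors. Of 26, 4 were higher and 16 lower (9.93% of all genes were higher and 9.17% lower). The list median was −0.55, against −0.0072 over all genes. The counts were 4 higher and 18 lower without the Bst2+ libraries, where 39.5% of all genes were called. Txnip, a redox and glucose uptake regulator, averaged 138 ± 16.2 CPM in CD25+ progenitors against 372 ± 21.4 CPM in FOXP3lo progenitors (−1.44 ± 0.12, edgeR adjusted p = 1.62e-07). Btg1, an antiproliferative factor of quiescent lymphocytes, averaged 427 ± 12.04 CPM in CD25+ progenitors against 984 ± 26.0 CPM in FOXP3lo progenitors (−1.21 ± 0.07, edgeR adjusted p = 2.78e-09). The PI3K inhibitor gene Pik3ip1 (−1.21 ± 0.13, edgeR adjusted p = 4.47e-06) and the cell cycle inhibitor gene Cdkn1b (−1.04 ± 0.12, edgeR adjusted p = 6.47e-06) were lower as well.

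The members of this list that were higher in CD25+ progenitors were Trib1, Gadd45b, Gabarapl1 and Cdkn1a. Trib1, a pseudokinase, averaged 134 ± 15.8 CPM in CD25+ progenitors against 29.2 ± 2.41 CPM in FOXP3lo progenitors (2.20 ± 0.20, edgeR adjusted p = 6.45e-07). Cdkn1a rested on 63 counts in CD25+ progenitors against 1 in FOXP3lo progenitors, so its fitted size depends on the prior count. In the same comparison 19 of 28 proliferation genes were called, all higher (median 1.51, with 9.93% of all genes higher), and the sum of CD8 and double-positive markers was higher in every CD25+ library. Their part in the result was not tested.

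**Figure D4:**
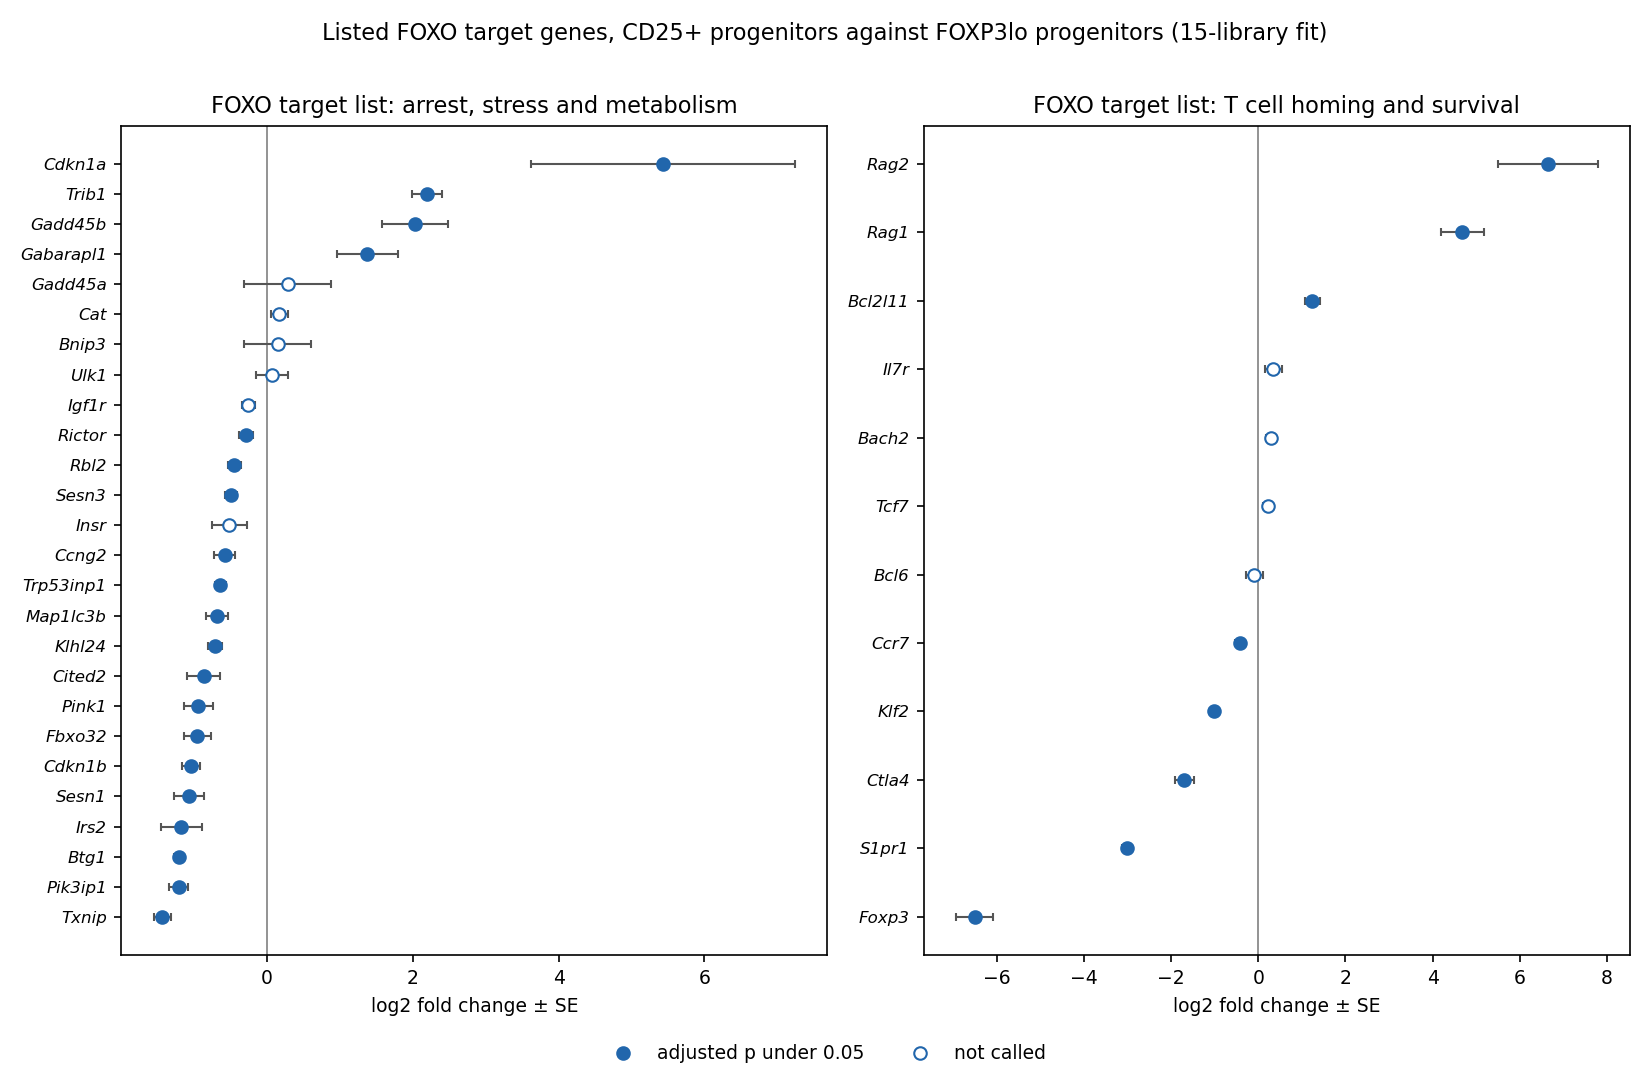
Log2 fold changes (points, bars ± SE) of the 26 tested FOXO targets of arrest, stress and metabolism (left) and the 12 of T cell homing and survival (right), in CD25+ progenitors against FOXP3lo progenitors, from the 15-library fit; filled points passed an adjusted p of 0.05. On the left 16 filled points lie below 0 and 4 above; on the right 5 lie below and 3 above. Cdkn1a and Rag2 had 1 and 2 counts in all FOXP3lo libraries together, so their fitted sizes depend on the prior count.

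Among the other comparisons, the arrest and stress targets were called higher more often than lower in FOXP3lo progenitors against conventional cells and in mature Tregs against conventional cells and CD25+ progenitors. FOXP3lo progenitors differed from conventional cells in 9 of 26, all higher (4.88% of all genes were higher and 3.83% lower), with Btg1 at 984 ± 26.0 CPM against 544 ± 8.34 CPM in conventional cells (0.86 ± 0.07, edgeR adjusted p = 2.75e-07). Mature Tregs had 11 higher and 1, Pik3ip1, lower than conventional cells (6.45% of all genes were higher and 5.73% lower). The growth factor receptor gene Igf1r led, at 187 ± 7.45 CPM against 41.5 ± 1.47 CPM in conventional cells (2.17 ± 0.10, edgeR adjusted p = 1.25e-10). Mature Tregs had 12 higher and 1, Trib1, lower than CD25+ progenitors (6.78% of all genes were higher and 6.26% lower). Against FOXP3lo progenitors they had 1, Igf1r, higher and 4 lower (2.51% and 2.21%), Pik3ip1, Btg1, Klhl24 and Sesn3. CD25+ progenitors had 4 higher and 4 lower than conventional cells (5.98% and 5.66% of all genes).

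Without the Bst2+ libraries the arrest and stress list had 14 higher and 0 lower in FOXP3lo progenitors against conventional cells (25.1% of all genes were called). Mature Tregs had 15 higher and 3 lower against conventional cells (30.4%). They had 17 higher and 3 lower against CD25+ progenitors (32.7%) and 5 higher and 8 lower against FOXP3lo progenitors (18.7%). CD25+ progenitors had 7 higher and 7 lower against conventional cells (29.0%). Proliferation genes went the other way in those comparisons where the list was mostly higher. Of 28, 14 were called in FOXP3lo progenitors (median log2 −1.38, with 3.83% of all genes lower) and 12 in mature Tregs (−1.32, 5.73%) against conventional cells, and 18 in mature Tregs against CD25+ progenitors (−1.11, 6.26%), all lower. Their part in the change of the targets was not tested.

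Targets of homing and survival went both ways. CD25+ progenitors had 3 of 12 higher and 5 lower than FOXP3lo progenitors (9.93% of all genes were higher and 9.17% lower). Without the Bst2+ libraries 5 were higher and 5 lower (39.5% of all genes were called). Foxp3 is among the lower ones, and the sort on FOXP3 fixed its direction. Klf2, a factor of T cell egress, averaged 108 ± 3.71 CPM in CD25+ progenitors against 219 ± 11.97 CPM in FOXP3lo progenitors (−1.02 ± 0.08, edgeR adjusted p = 1.29e-07). It was higher in mature Tregs than in FOXP3lo progenitors (0.39 ± 0.08, edgeR adjusted p = 0.00738). Il7r, a textbook FOXO1 target, was lower in mature Tregs than in conventional cells (−2.88 ± 0.21, edgeR adjusted p = 3.66e-08). The part of Foxo1 in the levels of Klf2 and Il7r was not tested.

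Bcl2l11, the death factor gene that FOXO3 induces, averaged 53.8 ± 7.18 CPM in mature Tregs, 263 ± 33.1 CPM in CD25+ progenitors and 111 ± 16 CPM in FOXP3lo progenitors, against 91.0 ± 7.84 CPM in conventional cells. It was called lower in mature Tregs (−0.76 ± 0.18, edgeR adjusted p = 0.00736) and higher in CD25+ progenitors (1.53 ± 0.18, edgeR adjusted p = 1.25e-05). The part of Foxo3 in these levels was not tested. Rag1, a recombinase gene that FOXO1 is known to induce in developing B cells, averaged 57.9 ± 15.9 CPM in CD25+ progenitors against 2.24 ± 0.425 CPM in FOXP3lo progenitors (4.68 ± 0.50, edgeR adjusted p = 3.09e-06). Rag1 and Rag2 also belong to the CD8 and double-positive markers given above.

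Corepressor partners of FOXP proteins were tested for 13 of 14 genes. CD25+ progenitors differed from conventional cells in 2, both higher, a share near the 11.6% of all genes called there: Gatad2a (0.77 ± 0.14, edgeR adjusted p = 0.00122) and Chd4 (0.34 ± 0.08, edgeR adjusted p = 0.00842), both of the NuRD complex. Without the Bst2+ libraries 6 higher and 1 lower were called (29.0% of all genes were called). Gatad2a averaged 181 ± 19.7 CPM in CD25+ progenitors against 106 ± 11.5 CPM in conventional cells. Mature Tregs differed from conventional cells in 3, all higher (12.2% of all genes were called), the deacetylase gene Hdac1 (0.78 ± 0.13, edgeR adjusted p = 0.00051), Gatad2b (0.38 ± 0.08, edgeR adjusted p = 0.00284) and Chd4 (0.25 ± 0.08, edgeR adjusted p = 0.0491). Without the Bst2+ libraries 5 were higher and 2 lower (30.4% of all genes were called). Against CD25+ progenitors mature Tregs had 3 higher and 3 lower (6.78% of all genes were higher and 6.26% lower). That became 3 higher and 6 lower without the Bst2+ libraries (32.7% of all genes were called).

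Genes that ran most like each member were sought among 8691 genes with a mean of at least 5 CPM, over the 12 libraries of the 4 gates without BST2, which share their gates, sort and scaling. The closest to Foxo1 were St8sia6 (Pearson r = 0.994), Neurl3 (0.988) and Gpr174 (0.987). For Foxo3 they were Pik3r1 (0.992), Rab21 and Tubb2a (both 0.984), and for Foxo4 Cog1 (0.967), Zfp260 and Mmp15 (both 0.964). Itpkb, an inositol phosphate kinase of lymphocytes, led for Foxp1 (0.993), with Pnpla7 and Ssh2 (both 0.984). Sdha (0.966), the NF-kappaB subunit gene Relb (0.962) and the nuclear receptor gene Nr4a3 (0.949), which T cell receptor signals induce, led for Foxp4.

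Among the members, over the same 12 libraries, Foxo1 had r = 0.933 with Foxo4, 0.854 with Foxo3 and 0.85 with Foxp1. Foxp4 had r = 0.103 with Foxo1, 0.409 with Foxo3, −0.142 with Foxo4 and −0.315 with Foxp1. With 4 gates of 3 libraries each, these values mostly describe how alike the gate means are.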

How the data were processed

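Bulk RNA of 15 sorted samples was sequenced from stranded total RNA libraries (SMARTer Pico v2), per the labels' protocols. The deposited table holds raw counts, which the authors made with featureCounts 1.6.2 from read pairs on Ensembl 97 (GRCm38), by strand and at a mapping quality of at least 10, per the file headers. The submitters' processing notes list Trimmomatic 0.33, HISAT2 2.1.0 and another version of the counter, 1.4.6. The deposited exonic lengths were used for RPKM. Amplified copies are counted as reads, so floors (3 counts) cover counting error only.

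The table has no symbols. By position against RefSeq GRCm38.p6, 36864 genes were named, and 230 of 232 entries in 16 gene lists were matched (not Sod2 and Foxh1). One further gene of the homing list is not reported here. CPM used TMM library sizes. Tests were edgeR 4.0.16 (R 4.3.3), quasi-likelihood with robust dispersion, on all 15 libraries with 5 gate means, after its default low-count filter (16069 genes, or 15648 without the Bst2+ libraries). Calls are Benjamini-Hochberg adjusted p-values under 0.05 over all genes tested. The edgeR fit of 15 libraries was tested on simulated counts, for mature Tregs against conventional cells only. Every simulated library had the same spread, so the larger spread of the Bst2+ libraries was not covered. The other fits were not tested in this way.

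Compared were the 6 pairs among the BST2-negative gates, Bst2+ cells with the mean of the remaining gates that carry CD25 or FOXP3, and the CD25 by FOXP3 interaction; Bst2+ cells were also set against single gates to order the levels. Alternatives were leaving out the Bst2+ libraries, RLE factors, no filter, the replicate block, limma-voom with sample weights (limma 3.58.1), DESeq2 1.42.0, only the 2 groups compared, plain CPM and leaving out each library in turn. None of these fits was run for Bst2+ cells against single gates. By the design text, equal numbers were taken as the same biological replicate. Deviations of same-numbered libraries correlated at −0.016 to 0.0423 across genes (mean 0.0107, 30 pairs), and others at −0.0444 to 0.0349 (60 pairs).

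Members and lists were chosen with earlier results of these data known. Named genes are all members, gate genes, up to 4 called genes per list and comparison with the smallest adjusted p, and the 3 genes most correlated with each member. Mki67, Bcl2l11 in 2 comparisons, Cdkn1b and Klf2 in 1 each, and names that complete a count of 5 or fewer were chosen after their values were seen.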

Additional observations from a re-analysis of the deposited data

Results flagged for a closer look

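One result stood out for a difference between groups. The difference in Foxp4 that goes with CD25 was not the same in cells with and without FOXP3 in the fit without the Bst2+ libraries (−0.56 ± 0.12, edgeR adjusted p = 0.000693). In that fit 10.9% of all genes were called. It was called in all 12 fits that left out 1 further library, at −0.64 to −0.47, but these fits share most of their libraries. With all 15 libraries it missed the threshold (−0.56 ± 0.26, edgeR adjusted p = 0.49). It also missed with the replicate block (edgeR adjusted p = 0.533) and by DESeq2 (adjusted p = 0.416), while limma-voom with sample weights called it (adjusted p = 0.000885). Mature Tregs had 139, 166 and 146 CPM of Foxp4 and FOXP3lo progenitors 149, 128 and 129 CPM, while CD25+ progenitors had 158, 153 and 184 CPM and conventional cells 106, 96.5 and 101 CPM. Mature Tregs also had more Foxp3 than FOXP3lo progenitors and more Il2ra than CD25+ progenitors, and the part of these levels was not tested.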

How the results depend on the processing

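Over 40 results of single members and 900 values under an alternative, 814 kept their direction and their side of the threshold, 58 were newly called, 21 lost a call and 7 changed sign. CD25+ progenitors against conventional cells gave 1 member called, and 2 without the Bst2+ libraries, with no filter, with the replicate block, by limma-voom or DESeq2, or with only the 2 groups, and 0 to 2 with 1 library left out. FOXP3lo progenitors against conventional cells gave 2, and 5 without the Bst2+ libraries, by limma-voom or with only the 2 groups. Foxp4 was added there with no filter or without Bst2+ replicate 40, and Foxp1 without Bst2+ replicate 42. Mature Tregs against conventional cells gave 3, with Foxp4 lost by the replicate block or without any 1 library outside the Bst2+ gate. Mature Tregs against CD25+ progenitors gave 3, with Foxo4 added without the Bst2+ libraries, by limma-voom or with only the 2 groups. There Foxp1 was lost without mature Treg replicate 40 or 43 or CD25+ replicate 42 or 43. Mature Tregs against FOXP3lo progenitors gave 0, and 1 without the Bst2+ libraries or by DESeq2, 2 by limma-voom, 3 with only the 2 groups, and 0 to 1 with 1 library left out. CD25+ against FOXP3lo progenitors gave 3, and 5 without the Bst2+ libraries, by limma-voom or with only the 2 groups, and 3 to 5 with 1 library left out. With no filter Foxo4 was added there. The interaction gave 0, and 1 without the Bst2+ libraries or by limma-voom, and 0 to 1 with 1 library left out. With the replicate block and without the Bst2+ libraries, chosen after seeing the data, the counts were those without the Bst2+ libraries. The replicate block with 15 libraries changed 2 calls of members, Foxp1 in CD25+ progenitors and Foxp4 in mature Tregs, both against conventional cells, and no other. Leaving out a further library from the 12 was also chosen after seeing the data. Over these alternatives the count of all genes called ran from 1268 to 4742 for CD25+ progenitors against conventional cells (1871 with 15 libraries), from 812 to 4505 for FOXP3lo progenitors (1400) and from 1342 to 4803 for mature Tregs (1957) against the same cells, from 1448 to 5193 for mature Tregs against CD25+ progenitors (2096), from 418 to 2978 for mature Tregs against FOXP3lo progenitors (759), from 2228 to 6661 for CD25+ against FOXP3lo progenitors (3069), from 2323 to 8413 for Bst2+ cells (6286) and from 222 to 1755 for the interaction (378). The lowest counts came with 1 library left out, or for Bst2+ cells by limma-voom. The fit of only the 2 groups could not be made for Bst2+ cells and the interaction.

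The interaction of Foxo3 (0.02) ran from −0.0393 to 0.0668 and that of Foxo4 (−0.04) from −0.1219 to 0.0576 with 1 library left out, with changes of sign but no call (Foxo3 −0.0243, −0.024 and −0.0393, Foxo4 0.0576, 0.0155, 0.0062 and 0.0139). Scaled by column totals instead of TMM, Foxo1 averaged 316.0 CPM in mature Tregs, 205.3 in CD25+ progenitors and 223.4 in conventional cells, Foxo3 averaged 125.6 in CD25+ and 166.0 in FOXP3lo progenitors, and Foxp1 averaged 491.0 in mature Tregs and 549.6 in FOXP3lo progenitors. The median over all genes moved by over 0.1 for Bst2+ cells alone, by −0.18 with no filter and −0.20 by limma-voom. Depth limits Foxj1, and 3 libraries a gate limit every test. The cause of these changes was not tested.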

Other observations

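Most other forkhead genes had too few counts to test. Of 37 that were matched, 9 passed the low-count filter: Foxd2, Foxj2, Foxj3, Foxk1, Foxk2, Foxm1, Foxn2, Foxn3 and Foxp3. Foxn3, a forkhead repressor known from cell cycle checkpoints, averaged 222 ± 40.3 CPM in Bst2+ cells, 504 ± 37.1 CPM in mature Tregs and 362 ± 20.4 CPM in CD25+ progenitors. FOXP3lo progenitors averaged 506 ± 30.2 CPM and conventional cells 267 ± 13.5 CPM. Against conventional cells it was called higher in mature Tregs (0.92 ± 0.11, edgeR adjusted p = 1.44e-05), CD25+ progenitors (0.44 ± 0.11, edgeR adjusted p = 0.0118) and FOXP3lo progenitors (0.92 ± 0.11, edgeR adjusted p = 2.4e-05). Foxk2 was called higher (0.47 ± 0.14, edgeR adjusted p = 0.0416) and Foxn2 lower (−0.56 ± 0.13, edgeR adjusted p = 0.00819) in CD25+ progenitors than in conventional cells.

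Of 6 genes of the IkB family, classical members of which hold NF-kappaB in the cytoplasm, 4 were called in mature Tregs against conventional cells, all higher (6.45% of all genes were). Without the Bst2+ libraries 5 were higher and 0 lower (30.4% of all genes were called). Bcl3, a nuclear member, averaged 83.1 ± 4.79 CPM in mature Tregs against 27.8 ± 5.23 CPM in conventional cells (1.58 ± 0.16, edgeR adjusted p = 1.55e-06). Nfkbia, the classical inhibitor, averaged 287 ± 6.76 CPM in mature Tregs against 127 ± 11.5 CPM in conventional cells (1.18 ± 0.16, edgeR adjusted p = 6.65e-05). In CD25+ against FOXP3lo progenitors Nfkbiz alone was called, as lower (−1.02 ± 0.10, edgeR adjusted p = 1.06e-06, with 9.17% of all genes lower). Without the Bst2+ libraries 1 was higher and 1 lower (39.5% of all genes were called).

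Genes on the same strand inside member loci were measured too. ENSMUSG00000102844, within Foxo1 and sharing none of its exonic bases, averaged 15.7 ± 3.80 CPM in CD25+ progenitors against 34.2 ± 5.14 CPM in FOXP3lo progenitors (−1.13 ± 0.30, edgeR adjusted p = 0.0131). ENSMUSG00000030068, which shares 300 exonic bases with Foxp1, averaged 23.9 ± 3.22 CPM in CD25+ progenitors against 46.0 ± 5.96 CPM in conventional cells (−0.94 ± 0.19, edgeR adjusted p = 0.00255).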
